A study of Mus musculus with 51 samples.

Results

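The 10 Krüppel-like factor (KLF) genes Klf2, Klf3, Klf4, Klf5, Klf6, Klf7, Klf9, Klf10, Klf13 and Klf15 were followed during fat cell formation in culture. They were named as KLF factors with a known part in fat cells and found by symbol among the 53801 genes of the counts table. All 10 passed the filter on low counts, which kept 17015 genes. The cells were C3H/10T1/2-SAM, a mouse mesenchymal precursor line that carries a CRISPR activation system, in which a dead Cas9 and its activator proteins raise transcription of the gene that a guide RNA points to. PY cells were transfected with guides for Pparg and for Ybx1, P cells with the Pparg guide, and EV cells with an empty vector, each with 250 ng of plasmid in total. Every group, EV included, carried the activation system and was given 5 µM rosiglitazone, which binds and activates PPARG, on day 0, 48 hours after transfection. The 51 libraries of total RNA came from 6 experiments. PY had 6, 5 and 6 libraries on days 0, 2 and 4, P had 5, 6 and 6, and EV had 5, 6 and 6.

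KLF proteins bind GC-rich and CACCC-type DNA through zinc fingers at their C-terminal end, and the rest of the protein decides whether a member activates or represses. In the cascade that ends in PPARG and CEBPA, some members act as early activators, among them KLF4 and KLF5, and others such as KLF9 and KLF15 act later. KLF2, KLF3 and KLF7 are known as brakes on the same cascade.

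The promoters of Klf15 and Klf13, which rose, and of Klf4 and Klf6, which fell, are shown because changes of these genes are described in detail here. Klf5 and Klf10, which also fell, were not among the 8 members with a promoter in the reference used here. Each is the 250 bases before the start of the gene, from RefSeq on GRCm38.p6, 5′ to 3′ on the gene's own strand. Capitals mark CACCC or its complement GGGTG, the core of the KLF binding site, and CACGTG, the E-box that clock and MYC factors bind.
Klf15, chr6:90462326-90462575, plus strand: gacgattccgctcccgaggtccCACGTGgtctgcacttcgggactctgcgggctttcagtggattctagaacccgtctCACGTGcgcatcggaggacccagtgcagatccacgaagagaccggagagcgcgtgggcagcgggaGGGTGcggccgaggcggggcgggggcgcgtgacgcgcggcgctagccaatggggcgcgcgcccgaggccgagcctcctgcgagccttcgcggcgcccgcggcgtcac
Klf13, chr7:63938916-63939165, minus strand: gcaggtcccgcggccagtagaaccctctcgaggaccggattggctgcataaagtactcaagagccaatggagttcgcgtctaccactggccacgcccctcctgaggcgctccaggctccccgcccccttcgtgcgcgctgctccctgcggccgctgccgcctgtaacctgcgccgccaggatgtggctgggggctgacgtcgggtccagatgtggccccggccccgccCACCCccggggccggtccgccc
Klf4, chr4:55532476-55532725, minus strand: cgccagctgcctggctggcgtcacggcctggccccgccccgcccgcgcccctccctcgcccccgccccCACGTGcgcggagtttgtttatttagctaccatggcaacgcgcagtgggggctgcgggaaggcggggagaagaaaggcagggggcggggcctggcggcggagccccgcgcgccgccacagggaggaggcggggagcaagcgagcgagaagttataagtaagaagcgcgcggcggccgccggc
Klf6, chr13:5861239-5861488, plus strand: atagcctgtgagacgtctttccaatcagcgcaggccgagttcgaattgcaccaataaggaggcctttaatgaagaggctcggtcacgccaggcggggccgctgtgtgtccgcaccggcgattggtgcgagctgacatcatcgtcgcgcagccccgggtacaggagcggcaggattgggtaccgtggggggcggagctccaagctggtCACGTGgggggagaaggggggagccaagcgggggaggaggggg
Klf15 held 2 CACGTG and 1 CACCC, Klf13 held 1 CACCC, and Klf4 and Klf6 held 1 CACGTG each. Of the 8 members found in the table of promoters, 6 held CACCC, against 52% of 32851 promoters of the same length, searched on both strands. CACGTG was in 3 of the 8, against 6.02% of all promoters, and CCAAT was in 4 of the 8, against 33.8%. None of the 8 held TATAAA (12.4% of all promoters), the cyclic AMP site TGACGTCA (1.55%), the direct repeat that PPARG binds together with RXR (0.0335%), or the CArG box of serum response factor (1.47%). These matches describe letters in this window.

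The guides raised their targets. Pparg averaged 262 ± 97.6, 298 ± 147 and 265 ± 83.5 CPM (read counts scaled to the library's total) on days 0, 2 and 4 in PY, 242 ± 91.9, 299 ± 122 and 239 ± 65.7 CPM in P and 51.5 ± 7.45, 56.5 ± 11.8 and 57.1 ± 15 CPM in EV (SD, n = 5 or 6). Ybx1 was 3.24-fold higher in PY than in P on day 4 (adjusted p = 1.41e-09). An adjusted p comes from edgeR's quasi-likelihood test, adjusted over all 17015 genes by Benjamini and Hochberg, and a gene passed when it was under 0.05. The 8 fat cell markers summed to a median of 9250 CPM in PY on day 4, 5250 CPM in P and 91.2 CPM in EV. The 8 mesenchymal markers summed to 2250 to 13700 CPM over all libraries. In such bulk RNA, fewer cells of a type and less RNA per cell cannot be told apart. Total counts ran from 3381870 to 114566739 per library, with a median of 22.4 M.

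Experiment 4 stood apart for several members, and PY on day 2 had no library from it. Klf5 in experiment 4 was above all other libraries of the same group in all 8 groups that have one, and Klf6 in 5 of 8. Klf15 was below the others in 7 of 8. The experiment number accounted for 74.6% of the variation of Klf5 between libraries of a group on the log2 scale, 58.7% of that of Klf6, 58.6% of that of Klf15 and 31.6% of that of Klf13.

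**Figure D1:**
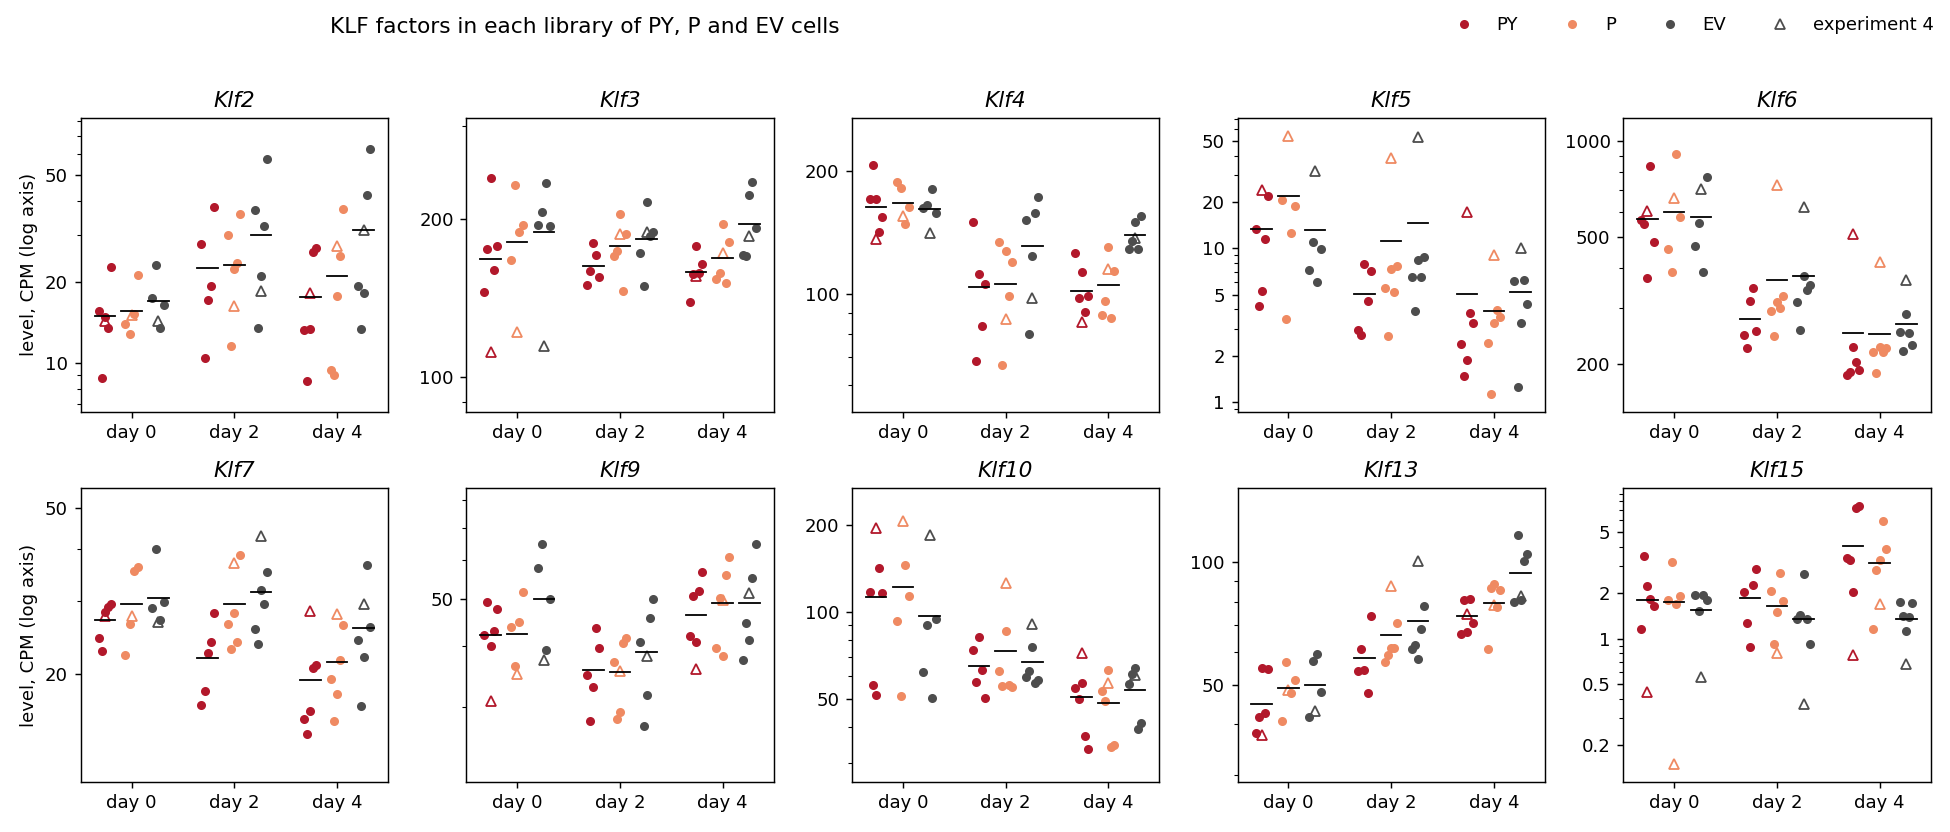
Level of each KLF gene in every library, in CPM on a log axis, by day and transfection. Dots are libraries, open triangles are those of experiment 4 and lines are group means. Klf13 is higher on day 4 than on day 0 in every transfection, Klf6, Klf10 and Klf4 have lower means, and Klf15 has its highest means in PY and P on day 4.

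The members differed widely in level. Per kilobase of exon and averaged over the 9 groups, Klf6 led with 89.4 CPM per kb, followed by Klf4 with 43, Klf10 with 18.4, Klf3 with 15.7 and Klf2 with 11.6 CPM per kb. Klf9 with 8.98 and Klf13 with 8.66 CPM per kb were close, then came Klf7 with 3.23, Klf5 with 2 and Klf15 with 0.735 CPM per kb. Klf6 was above Klf4 in 51 of 51 libraries, Klf4 above Klf10 in 49 and Klf13 above Klf7 in 51. Klf10 and Klf3 changed places from library to library, with Klf10 above in 20 of 51, and so did Klf9 and Klf13, with Klf9 above in 26. Klf2 was above Klf9 in 32, Klf5 above Klf15 in 38, Klf3 above Klf2 in 39 and Klf7 above Klf5 in 44. Klf15, the lowest, was read with 2 to 218 counts per library.

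Klf15 was the only member that passed between transfections in the fit without a replicate block. With the experiment as a block, 1 member passed as higher and 5 as lower in PY against EV on day 4, where 15.8% of all genes passed. KLF15 is a late activator of fat cell formation that also switches on the insulin-responsive glucose transporter gene Slc2a4. The gene (ENSMUSG00000030087, GRCm38 chromosome 6, 90462576 to 90475238, plus strand) averaged 4.05 ± 2.76 CPM in PY, 3.14 ± 1.71 CPM in P and 1.34 ± 0.4 CPM in EV on day 4 (SD, n = 6 each). The libraries of PY ran from 0.776 to 7.51 CPM with a median of 3.35. Those of P ran from 1.15 to 5.93 CPM with a median of 3.08, and those of EV from 0.678 to 1.74 CPM with a median of 1.4. In PY 5 of 6 libraries and in P 4 of 6 were above every EV library, and within experiments PY was above EV in 6 of 6 and P above EV in 5 of 6.

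In PY against EV, Klf15 was 3-fold higher on day 4 (95% interval 1.55 to 5.82, log2 fold change 1.59 ± 0.49 SE, adjusted p = 0.0314). It was the 1 of 10 members that passed, where 7.83% of all tested genes did. In P against EV the log2 fold change was 1.22 ± 0.48 (adjusted p = 0.188), and 0 of 10 members passed where 5.38% of all genes did, with 2 at an unadjusted p under 0.05 and 0 called by DESeq2. With the experiment as a replicate block Klf15 passed in both, at 1.44 in PY (adjusted p = 0.00236) and 1.20 in P (adjusted p = 0.0176). Without experiment 4, an alternative chosen after the data were seen, the values were 1.68 (adjusted p = 0.000897) in PY and 1.22 (adjusted p = 0.0269) in P. The call in PY was lost, at adjusted p up to 0.109, when EV day 4 replicate 3, 4 or 5 or PY day 4 replicate 5 or 6 was left out. The log2 fold changes without each library in turn were 1.31 to 1.82. It was also lost when only the groups compared were fitted (1.60, adjusted p = 0.0622).

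By day, Klf15 averaged 1.79, 1.86 and 4.05 CPM on days 0, 2 and 4 in PY, 1.75, 1.63 and 3.14 CPM in P and 1.55, 1.35 and 1.34 CPM in EV. Day 4 against day 0 gave a log2 fold change of 1.21 ± 0.49 in PY (adjusted p = 0.0458), with 4 of 6 experiments higher, and 0.86 ± 0.50 in P (adjusted p = 0.173, and 0.0166 with the experiment as a block). The call in PY was lost without PY day 4 replicate 1, 2, 5 or 6 or PY day 0 replicate 1, 4, 5 or 6, at adjusted p up to 0.151, with log2 fold changes of 0.93 to 1.55 over all 12 libraries left out in turn. It was also lost without the filter on low counts (1.19, adjusted p = 0.0838) and with only the groups compared (1.20, adjusted p = 0.0994). On day 2 the log2 fold changes against EV were 0.59 ± 0.52 in PY (adjusted p = 0.66) and 0.32 ± 0.49 in P (adjusted p = 1). Whether the difference from EV changed between day 0 and day 4 was tested directly and did not pass, with a change of 1.38 ± 0.71 for PY (adjusted p = 0.664) and 1.04 ± 0.72 for P (adjusted p = 1).

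Fat cell markers were higher in the same comparison as Klf15, and both are given by library here. The marker sums are scaled to plain library totals, and Klf15 to totals adjusted by TMM. All 8 markers passed as higher in PY than in EV on day 4, where 7.83% of all genes passed in either direction. Their median log2 fold change was 5.95. In PY on day 4, experiment 4 had the lowest Klf15, 0.776 CPM, and the lowest marker sum, 1550 CPM. Among the other 5 experiments the orders differed: experiment 6 had 7.51 CPM of Klf15 with a marker sum of 8750 CPM, and experiment 2 had 3.29 CPM with 13500 CPM. In other groups experiment 4 had the lowest Klf15 without the lowest marker sum. It had 0.445 CPM of Klf15 and a sum of 494 CPM in PY on day 0, and 0.149 and 269 CPM in P on day 0. In EV it had 0.557 and 24.7 CPM on day 0, 0.37 and 215 CPM on day 2, and 0.678 and 51.6 CPM on day 4. Marker sums were low in these groups, with medians of 112 and 116 CPM in PY and P, and 19.6, 85.1 and 91.2 CPM in EV. The order of these sums says little about fat cells. In P on day 2 experiment 4 also had the lowest Klf15, 0.808 CPM, with a sum of 3450 CPM. Experiments 1 and 3 had lower sums there, 2990 and 1700 CPM. On day 2 the marker sums already had medians of 7210 CPM in PY, 4240 CPM in P and 85.1 CPM in EV. The part of the share of fat cells in the Klf15 result was not tested.

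**Figure D2:**
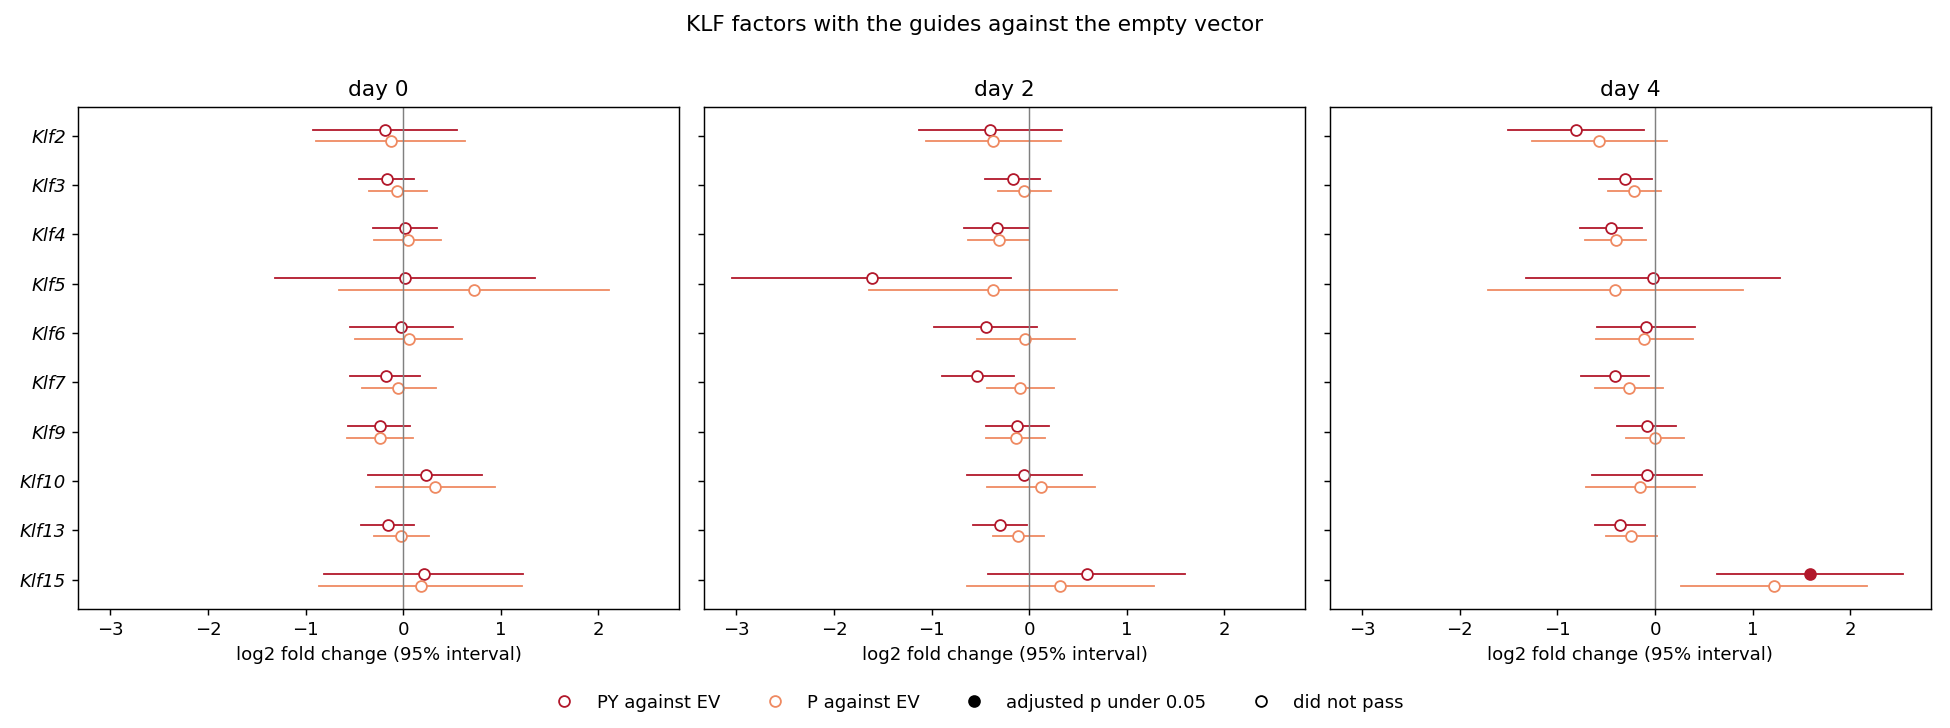
Log2 fold change of each KLF gene in PY and P against EV on each day, with 95% intervals. The fit is the one without the block. Filled points passed at an adjusted p under 0.05, which only Klf15 in PY on day 4 did, at 1.59.

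None of the other 9 members passed in PY against EV on day 4 without the block. The median log2 fold change of the 10 members was -0.20, against -0.05 for all genes. An unadjusted p under 0.05 was found for 6 of 10 members, Klf15 included, and DESeq2 called 1 of 10. With the experiment as a block 5 more passed, all lower, 6 of 10 in all, where 15.8% of all genes passed. They were the brakes Klf2 (-0.74, adjusted p = 0.0171), Klf3 (-0.30, adjusted p = 0.0437) and Klf7 (-0.42, adjusted p = 0.0234), the early activator Klf4 (-0.46, adjusted p = 0.0147) and Klf13 (-0.35, adjusted p = 0.0263). Each of the 5 was lower in PY than in EV in 6 of 6 experiments, and the share of all genes that were so is not given here. Most of the 8 mesenchymal markers were lower in the same comparison, with a median log2 fold change of -0.43. The log2 fold change was positive for 2 of the 8. Median sums on day 4 were 5610 CPM in PY, 6840 CPM in P and 8690 CPM in EV. Of the 8, 1 passed as lower in PY than in EV, and 3 with the block, where 7.83% and 15.8% of all genes passed in either direction. The part of these markers in the KLF results was not tested. Klf7 also passed without the block when PY day 4 replicate 4 was left out (-0.54, adjusted p = 0.0425).

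Klf4, which activates Cebpb early in fat cell formation in mouse 3T3-L1 cells, did not pass in PY against EV on day 4 without the block. The PY and EV libraries did not overlap, and the share of all genes without such overlap is not given here. Klf4 ran from 85.3 to 126 CPM in PY with a median of 98.3, and from 87.5 to 130 CPM in P with a median of 105. In EV it ran from 129 to 155 CPM with a median of 136. Its log2 fold change without the block was -0.45 ± 0.16 in PY (adjusted p = 0.0808, and 0.0302 with only the groups compared) and -0.40 ± 0.16 in P (adjusted p = 0.186). In P it passed with the block (-0.41, adjusted p = 0.0485) and was lower than EV in 6 of 6 experiments. With the block, Klf4 and Klf15 were the 2 of 10 members that passed in P on day 4, where 10.1% of all genes did.

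Klf2, known to repress the Pparg promoter, averaged 17.7 ± 7.36 CPM in PY, 21 ± 11.1 CPM in P and 31.2 ± 18.7 CPM in EV on day 4 (SD, n = 6 each). Its libraries overlapped widely, and experiment 6 was the highest and experiment 2 the lowest in every transfection. Experiment 6 had 26.7, 37.5 and 62.9 CPM in PY, P and EV, and experiment 2 had 8.54, 9 and 13.3 CPM. Klf13 averaged 73.7 ± 6.37 CPM in PY, 79.5 ± 10 in P and 94.4 ± 15.5 in EV. Klf3, a repressor that recruits CTBP proteins, averaged 159 ± 12.7 CPM in PY, 169 ± 17.6 in P and 196 ± 26.9 in EV. In P the log2 fold changes against EV were -0.57 ± 0.35 for Klf2, -0.25 ± 0.13 for Klf13, -0.27 ± 0.18 for Klf7 and -0.22 ± 0.14 for Klf3. None of these 4 passed with or without the block. Klf2 and Klf3 were also lower in P than in EV in 6 of 6 experiments, and Klf13 and Klf7 in 5 of 6.

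On day 2 no member passed against EV by edgeR without the block. In PY 0 of 10 passed, where 4.74% of all genes did, with 3 at an unadjusted p under 0.05 and 0 called by DESeq2. In P 0 of 10 passed, where 2.84% of all genes did, with 0 at an unadjusted p under 0.05 and 0 called by DESeq2, and with the block 0 members passed in P, where 5.49% of all genes did. With the block Klf7 passed in PY, the 1 of 10 where 10.2% of all genes did, with a log2 fold change of -0.49 (adjusted p = 0.0202) and 5 of 5 experiments lower. Klf7 libraries had 16.8, 18.2, 22.4, 23.9 and 28 CPM in PY on day 2 and ran from 23.6 to 43 CPM in EV with a median of 30.6. Klf7 shares 39.31% of its exon bases with the noncoding gene Gm26649 on the opposite strand, which had 0 CPM in all libraries, and Klf3 shares 3.59% with Gm20033. The strand setting of the counting is not given in the sources used here, so both genes are uncertain to that extent.

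On day 0, 0 of 10 members passed in PY against EV, where 0.047% of all genes did, and 0 of 10 in P against EV, where 0.00588% did. The unadjusted edgeR p was under 0.05 for 0 members in either, and DESeq2 called 0.

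The added Ybx1 guide gave no difference that passed in any member. In PY against P, 0 of 10 passed on days 0, 2 and 4, where 0.0294%, 0.0118% and 0.0176% of all genes did. DESeq2 also called 0, as did edgeR with the block, where 0.0294%, 0.0235% and 0.0235% of all genes passed. The unadjusted p was under 0.05 for 0, 1 and 0 members. On day 4 the log2 fold changes ran from -0.24 in Klf2 to 0.39 in Klf5. Both turned with 1 library: Klf5 gave -0.59 without PY day 4 replicate 4 and -0.14 without all of experiment 4, and Klf2 gave 0.02 without P day 4 replicate 6. Klf15 was 1.29-fold in PY relative to P on day 4, with a 95% interval of 0.684 to 2.44, and Klf13 was 0.926-fold, with 0.775 to 1.11.

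More members passed between days than between transfections, and so did more of all genes on day 4 against day 0. Between transfections 0.00588% to 7.83% of all genes passed without the block. Of the 10 members, 6 passed in PY between day 4 and day 0, 6 in P and 3 in EV, where 37.5%, 37.3% and 30% of all genes did. With the block 7, 7 and 5 passed, where 52.2%, 51.5% and 44.7% of all genes did. On day 2 against day 0, 4 passed in PY, 2 in P and 1 in EV, where 22.8%, 14% and 7.29% of all genes did. With the block these counts were 5, 6 and 3, where 35.6%, 28.6% and 22% of all genes did. Without the block the EV counts on both days were near the shares of all genes. The median log2 fold change of the 10 members on day 4 was -0.28 in PY, -0.28 in P and -0.20 in EV, against -0.01, -0.00 and 0.02 for all genes.

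**Figure D3:**
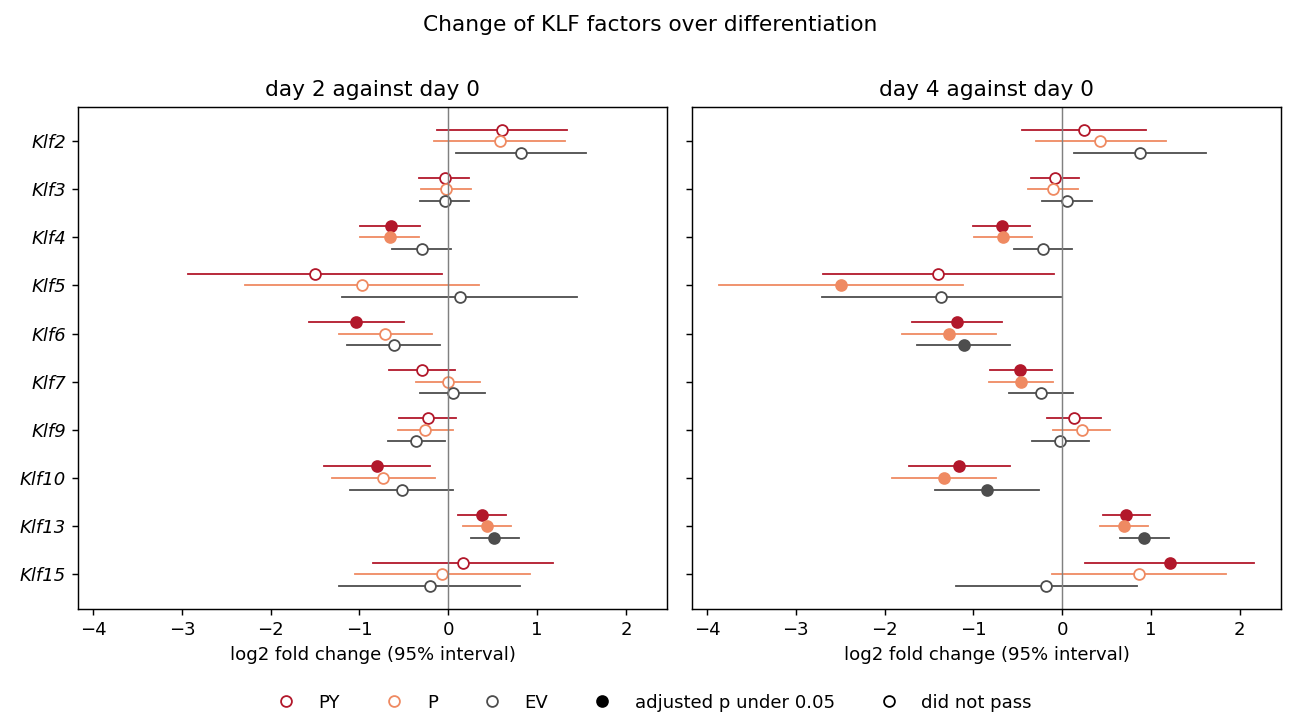
Log2 fold change of each KLF gene on day 2 and on day 4 against day 0 within PY, P and EV, with 95% intervals. Filled points passed at an adjusted p under 0.05. Klf13 passed as higher in all 3 transfections on both days, and Klf6 and Klf10 as lower in all 3 on day 4.

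Klf13 rose in every transfection. KLF13 is known as an activator of the Pparg promoter in pig and mouse preadipocytes. For the gene (ENSMUSG00000052040, GRCm38 chromosome 7, 63886351 to 63938915, minus strand) the values were as follows. In PY it ran from 66.8 to 81.3 CPM on day 4 with a median of 72.9, against 37.5 to 54.8 CPM on day 0 with a median of 42. In P it ran from 61.1 to 88.3 CPM on day 4 with a median of 81.9, against 40.7, 47.8, 48.6, 51.3 and 56.9 CPM on day 0. In EV it ran from 80 to 117 CPM on day 4 with a median of 92, against 41.7, 43.1, 48, 57.1 and 59.4 CPM on day 0. No library of day 4 overlapped with day 0 in any of the 3 transfections, and all paired experiments were higher, 6 of 6 in PY, 5 of 5 in P and 5 of 5 in EV. The share of all genes without such overlap is not given here.

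On day 4 the log2 fold change of Klf13 was 0.72 ± 0.13 in PY (adjusted p = 3.19e-05), 0.70 ± 0.14 in P (adjusted p = 0.00012) and 0.92 ± 0.14 in EV (adjusted p = 6.27e-06). These 3 calls held without each library in turn. On day 2 it was 0.38 ± 0.14 in PY (adjusted p = 0.0403), 0.44 ± 0.14 in P (adjusted p = 0.028) and 0.52 ± 0.14 in EV (adjusted p = 0.0152). Without experiment 4 the day 2 calls were lost, at 0.33 (adjusted p = 0.061) in PY, 0.33 (adjusted p = 0.0949) in P and 0.35 (adjusted p = 0.11) in EV. The call in PY was also lost without PY day 0 replicate 1, 2, 4 or 5 or PY day 2 replicate 2 or 5, at adjusted p up to 0.166. That in P was lost without P day 0 replicate 1, 3 or 4 or P day 2 replicate 4 or 6, at adjusted p up to 0.0873. That in EV was lost without EV day 0 replicate 1 or 4, at adjusted p up to 0.0533. With only the groups compared all 3 were lost, at adjusted p = 0.0851 in PY, 0.0561 in P and 0.0701 in EV, and without the filter on low counts those in PY (adjusted p = 0.0854) and P (adjusted p = 0.0723). The difference between the day 4 changes of PY and EV was -0.20 ± 0.19 and did not pass (adjusted p = 0.994).

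Klf6 and Klf10 fell in every transfection by day 4. KLF6 represses the preadipocyte gene Dlk1, and KLF10 is known as a TGF-beta-inducible early gene. For Klf6 (ENSMUSG00000000078, GRCm38 chromosome 13, 5861482 to 5870394, plus strand) the values were as follows. In PY it ran from 184 to 511 CPM on day 4 with a median of 197, against 372 to 834 CPM on day 0 with a median of 557. In P it ran from 187 to 417 CPM on day 4 with a median of 221, against 388, 460, 577, 665 and 908 CPM on day 0. In EV it ran from 219 to 367 CPM on day 4 with a median of 251, against 388, 468, 553, 705 and 771 CPM on day 0. The days overlapped in PY and P through experiment 4, which had 511 and 417 CPM on day 4, and did not overlap in EV. How many of all genes lack such overlap is not given here. Every paired experiment was lower on day 4, 6 of 6 in PY, 5 of 5 in P and 5 of 5 in EV.

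The log2 fold change of Klf6 on day 4 was -1.18 ± 0.26 in PY (adjusted p = 0.000337), -1.27 ± 0.27 in P (adjusted p = 0.000235) and -1.11 ± 0.27 in EV (adjusted p = 0.00163), and these calls held without each library in turn. On day 2 Klf6 had already fallen in PY, with -1.04 ± 0.27 (adjusted p = 0.00472). In P and EV the day 2 values were -0.71 ± 0.27 (adjusted p = 0.0686) and -0.61 ± 0.27 (adjusted p = 0.156). Both passed with the block, in P (adjusted p = 0.00164) and in EV (adjusted p = 0.00841), and without experiment 4, at -0.99 (adjusted p = 0.000435) in P and -0.74 (adjusted p = 0.0144) in EV. P also passed without P day 0 replicate 2 or P day 2 replicate 4, with log2 fold changes of -1.02 to -0.51 over the libraries left out in turn. EV passed without EV day 2 replicate 4, over a range of -0.82 to -0.49.

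Klf10 (ENSMUSG00000037465, GRCm38 chromosome 15, 38291463 to 38300706, minus strand) averaged 113 ± 54, 65.3 ± 12.7 and 50.8 ± 14 CPM on days 0, 2 and 4 in PY, 122 ± 58.2, 73.4 ± 28.1 and 48.5 ± 11.8 CPM in P, and 96.6 ± 53, 67.4 ± 13.6 and 53.8 ± 10.7 CPM in EV (SD, n = 5 or 6). Day 0 was the most variable day. On it, experiment 4 had 195, 206 and 185 CPM in PY, P and EV, and experiment 3 had 51.8, 51.1 and 50.3 CPM. Experiment 3 was also the only experiment in which Klf10 was not lower on day 4. The log2 fold change on day 4 was -1.16 ± 0.29 in PY (adjusted p = 0.00134), -1.33 ± 0.30 in P (adjusted p = 0.000483) and -0.85 ± 0.30 in EV (adjusted p = 0.0265). The EV call was lost without EV day 0 replicate 4 or EV day 4 replicate 5 or 6, at adjusted p up to 0.26 and log2 fold changes of -1.01 to -0.47 over the libraries left out in turn, and without experiment 4, at -0.54 (adjusted p = 0.124). On day 2 the value in PY was -0.80 ± 0.30 (adjusted p = 0.0499). That call was lost without PY day 0 replicate 1, 4, 5 or 6 or PY day 2 replicate 1, 2, 4 or 5, at adjusted p up to 0.184 and over a range of -0.94 to -0.58, and without experiment 4, at -0.59 (adjusted p = 0.0846). It was also lost with DESeq2 size factors (adjusted p = 0.0537), without the filter (adjusted p = 0.11) and with only the groups compared (adjusted p = 0.0797). In P on day 2 the value was -0.73 ± 0.30 (adjusted p = 0.0904), which passed with the block (adjusted p = 0.0194) and without P day 0 replicate 2 or P day 2 replicate 4.

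Klf4 (ENSMUSG00000003032, GRCm38 chromosome 4, 55527143 to 55532466, minus strand) fell in PY and P by day 2 and did not pass in EV. In PY it ran from 85.3 to 126 CPM on day 4 with a median of 98.3, against 136 to 207 CPM on day 0 with a median of 163. In P it ran from 87.5 to 130 CPM on day 4 with a median of 105, against 148, 155, 163, 182 and 188 CPM on day 0. In EV it ran from 129 to 155 CPM on day 4 with a median of 136, against 141, 158, 162, 165 and 181 CPM on day 0. Days 4 and 0 did not overlap in PY or in P and did in EV, and the share of all genes without such overlap is not given here. The log2 fold change on day 4 was -0.68 ± 0.16 in PY (adjusted p = 0.000759) and -0.67 ± 0.17 in P (adjusted p = 0.00154), and on day 2 it was -0.65 ± 0.17 in PY (adjusted p = 0.00423) and -0.66 ± 0.17 in P (adjusted p = 0.00524). These 4 calls held without each library in turn and under the 7 other settings. The difference between these changes and that of EV did not pass: on day 4 it was -0.47 ± 0.23 for PY (adjusted p = 0.629) and -0.45 ± 0.24 for P (adjusted p = 0.889). In EV Klf4 moved the same way, with -0.30 ± 0.17 on day 2 (adjusted p = 0.283) and -0.22 ± 0.17 on day 4 (adjusted p = 0.348). It was lower than on day 0 in 5 of 5 experiments on each day.

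Klf5, an early activator of Pparg that CEBPB and CEBPD switch on, had the largest share of variation between experiments. For the gene (ENSMUSG00000005148, GRCm38 chromosome 14, 99298691 to 99315036, plus strand) the values were as follows. In PY it ran from 1.48 to 17.4 CPM on day 4 with a median of 2.8, against 4.18 to 24.1 CPM on day 0 with a median of 12.4. In P it ran from 1.12 to 9.09 CPM on day 4 with a median of 3.4, against 3.44, 12.7, 19, 20.7 and 54.5 CPM on day 0. In EV it ran from 1.25 to 10.1 CPM on day 4 with a median of 5.23, against 6, 7.2, 9.93, 11.1 and 32.1 CPM on day 0. The days overlapped in every transfection, but within experiments Klf5 was lower on day 4 in 6 of 6 in PY, 5 of 5 in P and 5 of 5 in EV.

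Without the block Klf5 passed in P on day 4, with a log2 fold change of -2.49 ± 0.70 (adjusted p = 0.00452). In PY it was -1.40 ± 0.66 (adjusted p = 0.0933) and in EV -1.36 ± 0.69 (adjusted p = 0.131). With the block all 3 passed, at -1.78 in PY (adjusted p = 2.26e-05), -2.19 in P (adjusted p = 1.33e-06) and -1.40 in EV (adjusted p = 0.000946). Without PY day 4 replicate 4, the library of experiment 4, PY gave -2.38 (adjusted p = 0.00481), and without all of experiment 4 it gave -2.15 (adjusted p = 0.000154). On day 2 the value was -1.50 ± 0.73 in PY (adjusted p = 0.132) and -0.97 ± 0.67 in P (adjusted p = 0.37). Both passed with the block, at -1.11 (adjusted p = 0.0141) in PY and -0.97 (adjusted p = 0.0221) in P, and without experiment 4, at -1.27 (adjusted p = 0.0288) in PY and -1.31 (adjusted p = 0.035) in P. P also passed without P day 2 replicate 4 alone, at -1.96 (adjusted p = 0.0388).

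The comparisons of Klf5 between transfections moved with experiment 4. On day 2 Klf5 averaged 5.03 ± 2.37 CPM in PY (n = 5), 11.2 ± 13.8 in P and 14.7 ± 19.3 in EV (SD, n = 6 each), where the libraries of experiment 4 had 39.1 CPM in P and 53.8 CPM in EV. The log2 fold change of -1.61 ± 0.73 for PY against EV (adjusted p = 0.264) was -0.80 with the block and -0.52 without experiment 4. That of PY against P, -1.24 ± 0.72 (adjusted p = 1), was -0.46 with the block and -0.25 without experiment 4. On day 0 PY against P gave -0.71 ± 0.67 (adjusted p = 1), and -0.29 without experiment 4. On that day P against EV gave 0.72 ± 0.71 (adjusted p = 1), and 0.30 with the block.

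**Figure D4:**
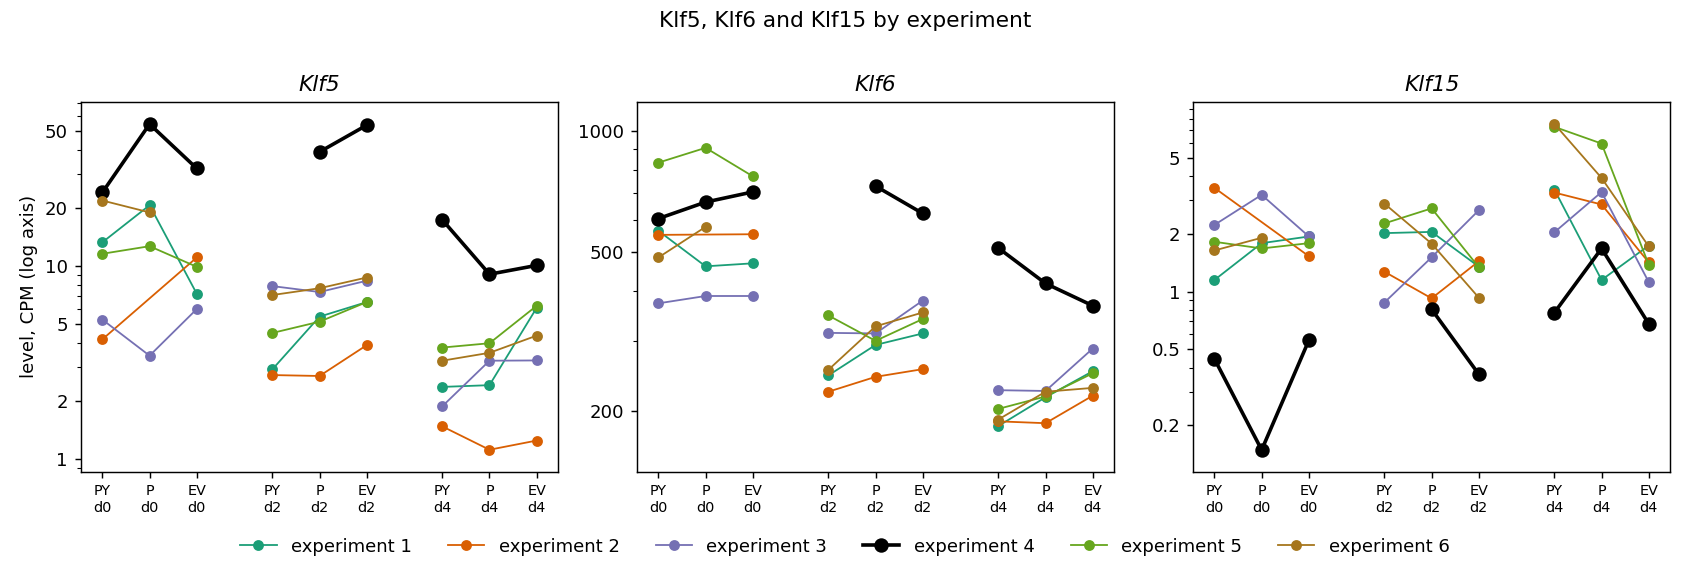
Klf5, Klf6 and Klf15 in each library, in CPM on a log axis, with the libraries of an experiment on the same day joined by a line. Experiment 4, in black, is highest for Klf5 in every group it has, highest for Klf6 on days 2 and 4, and lowest for Klf15 in every group it has but P on day 4, where it has 1.68 CPM.

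Klf7, which holds back fat cell formation when overexpressed in human preadipocytes, ran from 14.3 to 28.3 CPM in PY on day 4 with a median of 18.4, against 22.7 to 29.5 CPM on day 0 with a median of 27.9. Its log2 fold change on day 4 was -0.47 ± 0.18 in PY (adjusted p = 0.0333), -0.46 ± 0.18 in P (adjusted p = 0.044) and -0.24 ± 0.18 in EV (adjusted p = 0.342, and 0.0415 with the block). The call in PY was lost without PY day 4 replicate 1, 2, 3 or 5 or PY day 0 replicate 3, 4, 5 or 6, at adjusted p up to 0.0891 and log2 fold changes of -0.62 to -0.40. That in P was lost without P day 4 replicate 1, 2, 3 or 5 or P day 0 replicate 3, 4 or 5, at adjusted p up to 0.128 and log2 fold changes of -0.56 to -0.38. Both were also lost without the filter on low counts and without the 2 libraries of lowest total.

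Klf2 averaged 14.9, 22.5 and 17.7 CPM on days 0, 2 and 4 in PY, 15.6, 23.2 and 21 CPM in P, and 17, 30 and 31.2 CPM in EV. In EV the log2 fold change was 0.82 ± 0.38 on day 2 (adjusted p = 0.186) and 0.88 ± 0.38 on day 4 (adjusted p = 0.0728). The day 4 value passed by DESeq2 (0.89, adjusted p = 0.0499) and without EV day 4 replicate 2 (1.01, adjusted p = 0.0443), and not with the block (0.46, adjusted p = 0.115). In P on day 2 the value was 0.58 ± 0.37 (adjusted p = 0.33), which passed with the block (0.67, adjusted p = 0.0275).

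Klf9 and Klf3 passed in no comparison without the block. Klf9, an activator of Pparg in the middle of differentiation that glucocorticoids also induce, averaged 42.2, 35.8 and 46.3 CPM on days 0, 2 and 4 in PY, 42.4, 35.4 and 49.2 CPM in P, and 49.9, 39 and 49.1 CPM in EV, so that day 2 had the lowest mean in each. In EV the log2 fold change of day 2 was -0.36 ± 0.16 (adjusted p = 0.175), and with the block it passed at -0.42 (adjusted p = 0.00868). The 9 group means of Klf3 lay between 159 CPM, in PY on day 4, and 196 CPM, in EV on day 4.

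Whether a difference between transfections itself changed by day 2 or by day 4 was tested for PY against EV, P against EV and PY against P. In these 6 tests 0 of 10 members passed by edgeR, with or without the block, and DESeq2 called 0. Of all genes, 0.118% and 1.55% passed for PY against EV on days 2 and 4, 0.0588% and 0.288% for P against EV, and 0% and 0% for PY against P. With the block these shares were 0.3% and 3.27%, 0.094% and 1.32%, and 0% and 0%. The unadjusted p was under 0.05 for 1 member in PY against EV on day 4 and for 0 in the other 5.

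Across the 9 group means Klf5, Klf6 and Klf10 ran together. On the log2 scale Pearson's r was 0.96 between Klf6 and Klf10, 0.96 between Klf5 and Klf6 and 0.95 between Klf5 and Klf10. Klf13 ran against Klf10 with -0.90, and Klf15 ran against Klf7 with -0.88. These 9 points share days and experiments, and the r values are descriptions. Of all genes tested, those most like Klf15 over the 9 group means were Txnrd3, a thioredoxin reductase gene (r = 0.9803), and Slc22a3, an organic cation transporter gene (r = 0.9799).

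Of 9 tested genes described as KLF15 targets in liver, muscle or fat, 8 passed as higher in PY than in EV on day 4, with a median log2 fold change of 1.62, and 8 in P than in EV, with a median of 1.27. Of all genes 7.83% and 5.38% passed, with medians of -0.05 and -0.06. Pck1, of gluconeogenesis and glycerol supply, gave 7.72 ± 0.95 in PY and 7.46 ± 0.94 in P. Slc2a4 gave 6.13 ± 0.92 in PY and 5.76 ± 0.90 in P, and Gpt, an alanine aminotransferase, gave 3.11 ± 0.47 in PY and 2.82 ± 0.47 in P. In EV on day 4 Pck1 averaged 0.119 CPM and Slc2a4 0.345 CPM, near the floor. On day 2, 7 of the 9 passed in PY and 7 in P, where 4.74% and 2.84% of all genes did. Hsd17b4, of peroxisomal fatty acid oxidation, was the 1 of the 9 that passed on day 0, in PY (1.23 ± 0.22, adjusted p = 0.00458). In that comparison 0.047% of all genes passed. Several of the 9 genes are also PPARG targets, so that the list is not specific to KLF15.

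Of 15 fat cell regulators next to the KLF factors, 5 passed as higher in PY than in EV on day 4 and 4 in P than in EV, where 7.83% and 5.38% of all genes passed. Both counts include Pparg, the target of the guide. Cebpa gave 2.80 ± 0.56 in PY and 2.63 ± 0.56 in P, Srebf1 gave 1.49 ± 0.31 in PY and 1.36 ± 0.31 in P, and Mlxipl gave 5.27 ± 1.03 in PY and 5.02 ± 1.03 in P. Mlxipl averaged only 0.0577 CPM in EV on day 4, so the size of its difference is uncertain. Cebpb, a target of KLF4, passed in PY (0.85 ± 0.27, adjusted p = 0.0421), and in P it gave 0.73 ± 0.27 (adjusted p = 0.135). Egr2, a partner of KLF4 on Cebpb, passed as lower on day 4 than on day 0 in PY (-2.29 ± 0.49), P (-2.15 ± 0.50) and EV (-2.21 ± 0.50).

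Of 12 immediate early genes, which switch on within minutes of a stimulus, 12 passed as lower on day 4 than on day 0 in PY, 11 in P and 11 in EV, where 37.5%, 37.3% and 30% of all genes passed in either direction. Of the 12, 0 passed in any comparison of transfections by edgeR without the block, where 0.00588% to 7.83% of all genes did. The median log2 fold changes of the 12 on day 4 were -1.92 in PY, -2.29 in P and -2.03 in EV. Egr1 gave -2.82 ± 0.48 in PY, -3.21 ± 0.50 in P and -2.34 ± 0.49 in EV, and Fos gave -2.02 ± 0.34 in PY, -2.19 ± 0.35 in P and -1.70 ± 0.34 in EV. Their summed level on day 0 was highest in experiment 4, with 1670 CPM in PY, 2130 CPM in P and 1970 CPM in EV, and lowest in experiment 3, with 386, 442 and 424 CPM, which is also the order of Klf10 at its ends. Of 10 genes of the TGF-beta response, 3 passed as lower on day 4 in PY, 5 in P and 5 in EV, among them Smad7 (-1.36 ± 0.40 in PY, -1.72 ± 0.41 in P and -1.45 ± 0.41 in EV), and Tgfbi passed as higher in all 3. These counts stand beside 37.5%, 37.3% and 30% of all genes. The part of these responses in the KLF results was not tested.

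Of 9 tested genes of the glucocorticoid response, 4 passed as lower on day 4 than on day 0 in PY, 5 in P and 4 in EV, where 37.5%, 37.3% and 30% of all genes passed in either direction. Among them was Mt2 (-1.11 ± 0.30 in PY, -1.25 ± 0.31 in P and -1.05 ± 0.31 in EV), and Zbtb16 passed as higher in PY (4.87 ± 0.85) and in P (6.69 ± 1.04). Zbtb16 averaged only 0.0476 CPM in PY and 0.0117 CPM in P on day 0, so the size of its change is uncertain. Of 11 tested clock genes, 6 passed as lower in PY, 5 in P and 4 in EV, and 3 as higher in each, beside the same shares of all genes. Ciart was among the lower (-2.05 ± 0.33 in PY, -2.03 ± 0.34 in P and -2.07 ± 0.34 in EV). Among 10 corepressors and other partners of KLF proteins, Hdac3 passed as higher (0.58 ± 0.11 in PY, 0.62 ± 0.12 in P and 0.55 ± 0.12 in EV), and Rcor1 (-0.56 ± 0.09 in PY, -0.53 ± 0.10 in P and -0.31 ± 0.10 in EV) and Kdm1a (-0.54 ± 0.11 in PY, -0.57 ± 0.12 in P and -0.48 ± 0.12 in EV) as lower. Wwp1, a ubiquitin ligase that marks KLF2 and KLF5 for degradation, passed as higher in PY (0.35 ± 0.12) and in P (0.32 ± 0.13). None of these 10 passed between transfections by edgeR without the block, where 0.00588% to 7.83% of all genes did.

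Of the 7 other KLF genes, 5 were tested, and 0 passed against EV on any day by edgeR without the block. In these comparisons 0.00588% to 7.83% of all genes passed. Klf12, a repressor that recruits CTBP1, rose by day 4 (1.16 ± 0.37 in PY, 1.06 ± 0.39 in P and 1.41 ± 0.39 in EV), and with the block it passed as lower in PY than in EV on day 4 (-0.63 ± 0.36 without the block, adjusted p = 0.00973 with it). Klf16 passed as lower in PY (-0.51 ± 0.19) and P (-0.59 ± 0.19). In EV it averaged 37.6 CPM on day 0 and 29.1 CPM on day 4 and did not pass without the block. With the block 2 of the 5 tested genes passed as lower in EV on day 4, where 44.7% of all genes passed. Klf11 passed as higher in EV (0.58 ± 0.17). Its means also went from 22.4 to 24.7 CPM in PY and from 21.8 to 26.3 CPM in P. Klf1, which is known from red blood cells, passed as higher in PY (1.62 ± 0.50) and P (1.47 ± 0.50) at no more than 0.643 CPM in any library. Of 9 SP factors, which share the zinc finger type of the KLF proteins, 5 were tested and 0 passed by edgeR without the block. Over all comparisons 0% to 37.5% of all genes passed. With the block, Sp4 passed as higher on day 4 in EV (adjusted p = 0.0216), where 44.7% of all genes passed.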

How the data were processed

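The authors deposited raw read counts per Ensembl gene for 51 libraries, made from ribosomal-depleted total RNA per the labels' protocols. The submitters' processing notes name the aligner STAR (2.5.3a), the counter featureCounts (1.5.2), edgeR (3.22.0) and mm10, which is GRCm38. The annotation release, strand setting and treatment of multiply mapped reads are not given in the sources used here. Gene symbols and positions came from GENCODE M21, which held 53706 of 53801 identifiers.

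The counts were filtered with filterByExpr, scaled by TMM and fitted in edgeR 4.0.16 (limma 3.58.1, R 4.3.3) with 9 group means over all libraries. Each comparison used the 2-sided quasi-likelihood test with Benjamini-Hochberg adjustment over 17015 genes. Standard errors were calculated back from the fold change and the F statistic, and the 95% intervals use a normal approximation. CPM values of single genes use TMM-scaled totals, and log2 CPM a prior count of 2. Sums over the genes of a list, and the highest level of Klf1, use plain library totals instead. The code was tested on simulated data. Intervals and levels rest on 3381870 to 114566739 counts per library.

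The labels number 6 experiments, and libraries of the same experiment deviated together (median r = 0.364 over 192 pairs, against -0.0886 over 963 pairs of different experiments), so the number pairs libraries. The design has no block in its first form. A second fit, which adds the experiment number as a replicate block, is given where it changes a call of a member. For genes of the other lists it is given only in part. The labels do not say whether experiments were separate cultures, so p-values measure the spread between these libraries, which may be technical. No 2 libraries of a group held identical counts.

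Alternatives were DESeq2 size factors in edgeR, no filter, the DESeq2 1.42.0 Wald test, fitting the compared groups only, leaving out the 2 libraries of lowest total, each library in turn, and plain totals for CPM. All KLF members are described, with library values for those that passed. Overlap between groups is described for members only, without the share of all genes that do not overlap, so it does not set a member apart. Of other lists, up to 4 genes of smallest adjusted p per comparison could be named. Cebpb against EV, Klf12 against EV and Sp4 were named after their values were seen, outside that rule. The members and lists were chosen with earlier results of these data known.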

Additional observations from a re-analysis of the deposited data

Results flagged for a closer look

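Of 90 pairs of a member and a group, 11 had a library far from the others of its group, with a gap to the nearest library that was large against the range of the group (Dixon's 95% criterion). Chance marks about 1 in 20 groups. Of the 11, 9 were libraries of experiment 4.

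Klf5 had 17.4 CPM in PY day 4 replicate 4, where the other 5 libraries had 1.48 to 3.79 CPM. It had 9.09 CPM in P day 4 replicate 4, where the others had 1.12 to 3.99 CPM, and 39.1 CPM in P day 2 replicate 4, where the others had 2.7 to 7.69 CPM. In EV it had 53.8 CPM in day 2 replicate 4, where the others had 3.9 to 8.74 CPM, and 32.1 CPM in day 0 replicate 4, where the others had 6 to 11.1 CPM.

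Klf6 had 511 CPM in PY day 4 replicate 4, where the others had 184 to 226 CPM. It had 417 CPM in P day 4 replicate 4, where the others had 187 to 225 CPM, and 729 CPM in P day 2 replicate 4, where the others had 244 to 326 CPM. In EV day 2 replicate 4 it had 623 CPM, where the others had 255 to 378 CPM.

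The libraries outside experiment 4 were P day 0 replicate 5, from experiment 6, with 21.2 CPM of Klf2 where the others had 12.8 to 15.2 CPM, and EV day 0 replicate 2, from experiment 2, with 40 CPM of Klf7 where the others had 26.6 to 29.8 CPM.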

How the results depend on the processing

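Of 62 fold changes of members recomputed, 6 turned direction under an alternative, and none of the 6 passed a test in any of them. Klf15 on day 0, P against EV, was 0.18, and -0.03 with the experiment as a replicate block and -0.15 to 0.48 without each library in turn. Klf15 on day 0, PY against EV, was 0.21, and -0.15 to 0.42 without each library. Klf15 on day 0, PY against P, was 0.03, and -0.02 without the 2 libraries of lowest total, -0.06 without experiment 4 and -0.33 to 0.36 without each library. Klf5 on day 4, PY against EV, was -0.02, and 0.04 without the filter on low counts, 0.01 without the 2 libraries of lowest total, 0.02 with only the compared groups and -0.99 to 0.32 without each library. Klf5 on day 4, PY against P, was 0.39, and -0.14 without experiment 4 and -0.59 to 0.86 without each library. Klf2 on day 4, PY against P, was -0.24, and -0.40 to 0.02 without each library. Genes of the other lists were refitted with the block only, and for tests of a changed difference the alternatives give the number of members that passed. The block moved calls in the other lists too, for example against EV on day 4. Of 15 fat cell regulators, 7 passed as higher and 1 as lower in PY, and 5 and 1 in P. Of 9 KLF15 targets 9 passed as higher in PY, and of 10 corepressors 1 as lower in PY. Of all genes 15.8% passed in PY and 10.1% in P. Between day 4 and day 0, 6 of 10 TGF-beta genes passed as lower in each transfection. Of all genes 52.2%, 51.5% and 44.7% passed in PY, P and EV. With the experiment as a replicate block, the number of members that passed was 6 in PY against EV on day 4, 1 in PY against EV on day 2, 2 in P against EV on day 4, 6 in P and 3 in EV between day 2 and day 0, and 5 in EV between day 4 and day 0. Without experiment 4, an alternative chosen after seeing the data, 1 member passed in P against EV on day 4. Without the filter on low counts 2 passed in PY and 1 in P on day 2, and with only the compared groups fitted 1 passed in P and 0 in EV on day 2. Leaving out each library in turn gave 0 to 2 members in PY against EV on day 4, 4 to 7 in PY, 5 to 6 in P and 2 to 4 in EV on day 4 against day 0, and 2 to 4 in PY, 1 to 4 in P and 0 to 2 in EV on day 2 against day 0. The other counts stayed at 0 there. The cause of these changes was not tested. Depth limits Klf15 most, with 2 counts in its lowest library.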
